A study of Homo sapiens with 19 samples.

Results

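Hypoxic SKBR3 cells with high surface CD44 were compared with untreated SKBR3 cells. SKBR3 is a human breast cancer line of luminal origin with an amplified ERBB2 gene, and CD44 is a hyaluronan receptor at the cell surface. The arrays were chosen by their labels. They comprise 4 arrays of cells kept in 1% oxygen for 7 days and then sorted by flow cytometry for high CD44 (CD44hi hypoxia), and 3 arrays of untreated cells, 7 of the 19 arrays of the series. The other arrays hold the CD44-/lo fraction of the hypoxic cells (CD44lo hypoxia, 4 arrays), and the CD44hi and CD44-/lo fractions of cells given epirubicin, which poisons topoisomerase II, at 60 nM for 3 days (4 arrays each). All cultures were grown in McCoy's 5A medium with serum, and 200 ng of total RNA per sample was labelled from the 3' end. The labels give no sort for the untreated cells, so low oxygen and sorting on CD44 were compared together and cannot be told apart. The samples are named biological replicates, but nothing states that they came from separate cultures, so p-values measure only the spread between these samples. In RNA of many cells, a change in the share of cells of one kind cannot be told apart from a change in RNA per cell.

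As background, cells sense oxygen through prolyl hydroxylases, encoded by the EGLN genes, which mark the alpha subunits of hypoxia inducible factor (HIF) for destruction while oxygen is present. In low oxygen the factor accumulates, pairs with ARNT and binds promoters and enhancers through a short core sequence, the hypoxia response element. Its known targets move glucose into the cell, run glycolysis, turn over mitochondria and remodel collagen. Genes of the contractile cytoskeleton answer to another switch. There, loss of free actin monomer lets the coactivator MRTFA enter the nucleus and join serum response factor, SRF, on CArG boxes in the promoters of actins, myosin light chains and SRF itself.

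Promoter windows from both families are shown first, since a known binding sequence lies near the start of many of their members. They come from RefSeq (build GRCh38.p14) and cover 250 bases before and 50 after each annotated start. The table held 35116 promoters of 27305 genes. Each line below gives a window of bases 5' to 3' along the gene's own strand, with the CArG box in capitals. SRF and the windows shown were chosen after their values were seen.
ACTA1 (chr1:229434172-229434201, minus strand, 97 bases upstream): tgcccaacacCCAAATATGGctcgagaagg
ACTG2 (chr2:73892888-73892917, plus strand, 110 bases upstream): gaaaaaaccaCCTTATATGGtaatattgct
ACTG2 (chr2:73892925-73892954, plus strand, 73 bases upstream): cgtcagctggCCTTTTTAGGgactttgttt
MYL7 (chr7:44141374-44141403, minus strand, 61 bases upstream): ctgttcctctCCTTATTTGGaccttcaggt
FHL2 (chr2:105399091-105399120, minus strand, 59 bases upstream): gcgtgcatctCCTTATATGGtcaaatgaca
SRF (chr6:43171229-43171258, plus strand, 30 bases upstream): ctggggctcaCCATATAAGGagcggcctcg
ACTC1 (chr15:34795639-34795668, minus strand, 109 bases upstream): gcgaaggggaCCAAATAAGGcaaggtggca
ACTA1, ACTG2, MYL7, FHL2 and SRF were higher in CD44hi hypoxia, whereas ACTC1, whose window holds the same kind of box, was not called. The whole stretch of 250 bases before the ACTA1 start is given because this gene had the largest rise of all genes tested on the log2(signal + 4.2) scale, in which 4.2 is an offset added to every signal.
ACTA1 (chr1:229434095-229434344, minus strand): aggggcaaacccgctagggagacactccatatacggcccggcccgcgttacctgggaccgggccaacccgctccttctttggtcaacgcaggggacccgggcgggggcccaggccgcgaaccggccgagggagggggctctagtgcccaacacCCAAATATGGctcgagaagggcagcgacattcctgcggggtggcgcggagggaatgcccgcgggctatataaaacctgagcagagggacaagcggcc
The CArG box was searched on both strands, and every match reads the same class of sequence on either strand. It was present in 1.29% of all 35116 promoters and in 11 of the 48 promoters of tested actomyosin genes (22.9%), which belong to 9 of the 23 genes of that list with a promoter in the table. Among promoters of genes called higher in CD44hi hypoxia the share was 2.57%, and among those of genes called lower 1.05%. No CArG box was found in the 44 promoters of tested glycolysis genes or in the 29 of the other HIF targets.

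The hypoxia response element core was searched as ACGTG or GCGTG on both strands, so that a CACGTG holds a match on each strand. Windows of ENO2, EGLN1, ADM and BHLHE40, which rose, stand beside those of EGLN2 and CA12, which fell. Capitals mark the core, or CACGTG where both strands match; CACGC in the CA12 window is the core on the opposite strand.
ENO2 (chr12:6914452-6914476, plus strand, 118 bases upstream): ccgcgctcgtACGTGcgcctccgcc
EGLN1 (chr1:231422286-231422310, minus strand, 13 bases upstream): gccgtggtgtACGTGcagagcgcgc
ADM (chr11:10304962-10304986, plus strand, 101 bases upstream): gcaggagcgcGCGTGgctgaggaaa
BHLHE40 (chr3:4979253-4979277, plus strand, 174 bases upstream): cagtggccagACGTGcctggagtca
EGLN2 (chr19:40799132-40799156, plus strand, 49 bases upstream): ggggcgcggtCACGTGcccaccggg
CA12 (chr15:63382066-63382090, minus strand, 234 bases upstream): ggatctcaccCACGCctgccagcag
This core is short and common. It was present in 48.4% of all promoters, in 59.5% of those of tested genes, in 65.9% of glycolysis promoters and in 82.8% of those of the other HIF targets. Promoters of genes called higher held it in 55.0% and promoters of genes called lower in 62.2%. Counted by gene, it was found for 21 of 22 glycolysis genes (95.5%) and 18 of 21 other HIF targets (85.7%). The share was 68.7% of tested genes, 66.7% of those called higher and 71.5% of those called lower. A gene counts where any of its promoters holds a match, so genes with several promoters have more room for one. A match is a description of letters and not of binding.

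**Figure D1:**
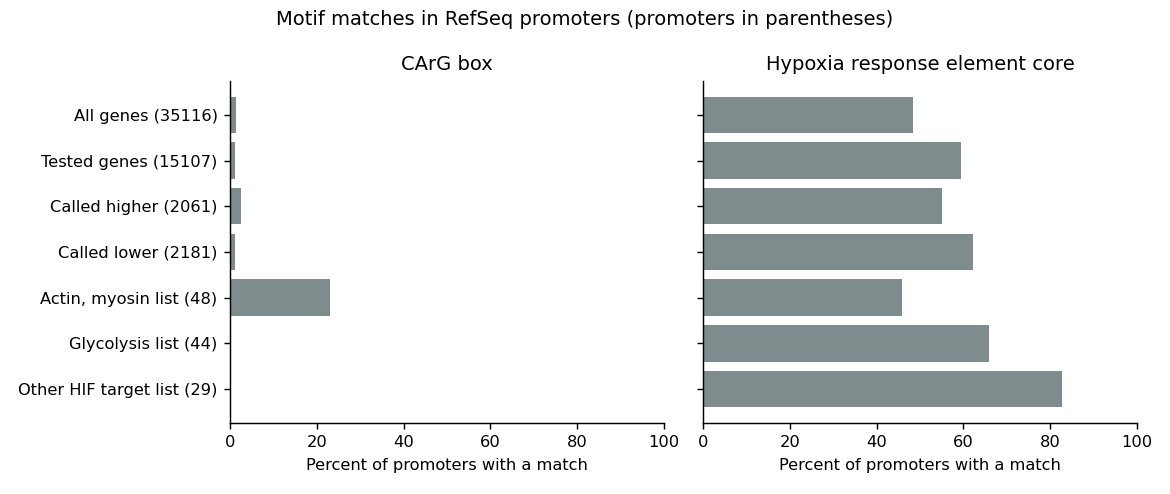
Share of promoters that hold a CArG box (left panel) or a hypoxia response element core (right panel), in percent of the promoters in each set. Bars stand for sets of promoters from 250 bases before to 50 after each start; actomyosin promoters held a CArG box in 22.9%, against 1.29% of all promoters.

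Arrays of the untreated group correlated at r = 0.978 to 0.985 across genes and those of CD44hi hypoxia at 0.935 to 0.962, and the values between the groups were 0.854 to 0.933. Signals above 100 were seen for 6773 to 6820 genes on untreated arrays, and for 6637, 6815, 6473 and 6448 on CD44hi hypoxia arrays 1 to 4. Mean signals of 16 hybridisation control probe sets were 2031 to 2415 on untreated and 3044, 2338, 3085 and 2672 on CD44hi hypoxia arrays. On both measures only CD44hi hypoxia array 2 lay within the untreated range, and their part in the differences was not tested. The ratio of 3' to 5' signal of ACTB, a measure of RNA quality, was 1.22 to 1.27 on untreated and 1.20 to 1.29 on CD44hi hypoxia arrays. Of 12925 genes tested with limma, 3475 were called at an adjusted p under 0.05 (26.9%). In all, 1657 were higher in CD44hi hypoxia (12.8%) and 1818 lower (14.1%), and the median log2 difference over all genes was 0.0027. Called differences reached 2-fold in 1954 genes, and 8-fold in 110 higher and 48 lower genes. All CD44hi hypoxia arrays were above all untreated arrays in 2386 genes (18.5%) and below them in 2631. Of the 3475 called genes, 3308 were separated in this way. These shares are the background for every count and every lack of overlap below, so separation adds little to a call. The gene lists were chosen with earlier results of these data known, so their counts are descriptions only. The largest rises and falls of each comparison were named only from called genes without overlap, so their separation was a condition of choice. List members below the filter on low signals were not tested. A dim gene that passed through the group where it is high had to differ. Counts and medians over the tested members therefore describe those members alone.

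The luminal identity of the line was read from 12 markers. Of these, 1 was called, TFAP2B, which fell. Over all 12, 5 log2 differences were positive, and the median was -0.12. KRT8, KRT18, EPCAM and ERBB2 were bright in both groups and not called, with log2 differences of 0.19 ± 0.12, 0.20 ± 0.13, 0.24 ± 0.14 and -0.25 ± 0.17 (SE). CDH1, encoding E-cadherin, which SKBR3 cells are known to lack, was near the bottom of the scale in both, at 2.3, 3.9 and 5.2 on untreated arrays and 16.7, 6.1, 13.7 and 21.4 on CD44hi hypoxia arrays. It was not called (1.16 ± 0.46 SE, adjusted p = 0.0636), but was without CD44hi hypoxia array 2 (log2 difference 1.42, adjusted p = 0.0273). The sort marker CD44 itself was 78.8, 52.4 and 67.0 on untreated and 1050.3, 487, 972 and 1658 on CD44hi hypoxia arrays. The cells had been selected for it, so the part of low oxygen in this difference was not tested. Signals of CD44 in CD44lo hypoxia, most of them also above the untreated range, are given further below.

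The oxygen sensor genes split. EGLN3 and EGLN1, the prolyl hydroxylases that are themselves HIF targets, rose 21.3-fold and 2.49-fold, and CITED2, which competes with HIF for its coactivators, rose 2.16-fold. HIF1A, the alpha subunit that the hydroxylases act on, and EGLN2 fell. Of 9 genes tested, 3 were higher and 2 lower. EPAS1, ARNT, VHL and HIF1AN were not called. Signals of EGLN3 were 84.7, 46.5 and 60.3 on untreated arrays 1 to 3 and 1621, 954, 1898 and 1327 on CD44hi hypoxia arrays 1 to 4, and all signals below follow that order. The difference on the log2 scale, which every later value with a standard error (SE) gives, was 4.41 ± 0.32 SE, adjusted p = 1.26e-08. HIF1A went from 455, 484 and 430.1 to 293, 348, 206 and 197, a difference of -0.83 ± 0.22 SE, adjusted p = 0.00755. Every CD44hi hypoxia array was above every untreated array for EGLN3 and below for HIF1A. EGLN2 was 29.4, 38.0 and 28.6 and then 20.9, 9.3, 10.0 and 4.3, with no overlap, a difference of -1.34 ± 0.39 SE, adjusted p = 0.0145. The EGLN2 call was lost without untreated array 2 (-1.22, adjusted p = 0.0654) and without CD44hi hypoxia array 4 (-1.09, adjusted p = 0.0567).

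Glucose uptake and glycolysis genes were higher over most of the pathway. Of 23 tested, 16 rose and 2 fell, and the median log2 difference was 0.54. Without untreated array 1, 2 or 3, or CD44hi hypoxia array 1 or 4, 1 fell. SLC2A3, a high-affinity glucose transporter, went from 16.4, 23.0 and 21.7 to 598, 211, 1033 and 1692 (4.82 ± 0.63 SE, adjusted p = 1.66e-05). ENO2, an enolase usual in neurons, went from 1.4, 8.4 and 1.2 to 204, 22.3, 203 and 386 (4.32 ± 0.76 SE, adjusted p = 0.000300). Neither gene overlapped between the groups, and both were lowest on CD44hi hypoxia array 2. The untreated ENO2 signals lie near or under the offset of 4.2 that was added before taking logs, which understates that difference. PFKFB4 and PFKFB3, which make the activator of phosphofructokinase, rose by 2.24 ± 0.41 and 2.01 ± 0.20 (SE) on the log2 scale. SLC2A1, the common glucose transporter, rose by 1.29 ± 0.16, the aldolase ALDOC by 1.22 ± 0.21 and the phosphofructokinase PFKP by 0.97 ± 0.20. PFKM, the muscle-type phosphofructokinase subunit, moved the other way, from 371, 449 and 523 to 170.4, 157, 201 and 119, with all CD44hi hypoxia arrays below all untreated arrays (-1.45 ± 0.26 SE, adjusted p = 0.000414). HK1, the housekeeping hexokinase, was not called (0.21 ± 0.26 SE, adjusted p = 0.612).

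Among the other HIF targets, 21 of 26 tested were higher and 1 lower, with a median of 1.62. LOXL2, a collagen crosslinking oxidase, gave the smallest adjusted p of all genes tested and went from 18.4, 22.7 and 29.3 to 810.1, 616, 661 and 733 (4.69 ± 0.26 SE, adjusted p = 6.89e-10). TMEM45A, a membrane protein, was 44.5, 38.0 and 37.1 and then 709.5, 569.9, 886 and 1120.4 (4.19 ± 0.33 SE, adjusted p = 4.40e-08). ADM, the vasodilator peptide adrenomedullin, was 79.7, 78.1 and 107 and then 1781, 547, 1339 and 1874 (3.78 ± 0.45 SE, adjusted p = 6.14e-06). All 3 genes were separated between the groups. STC1, a secreted glycoprotein, rose by 3.33 ± 0.37, the circadian repressor BHLHE40 by 3.21 ± 0.41, BNIP3L, a receptor for the removal of mitochondria, by 3.08 ± 0.34, and ERO1A, an oxidase of the endoplasmic reticulum, by 2.64 ± 0.33 (SE). CA12, encoding a membrane carbonic anhydrase, was the exception. Its signals fell from 544, 615 and 767 to 96.9, 87.1, 84.4 and 54.0, with every CD44hi hypoxia array under every untreated array (-2.94 ± 0.34 SE, adjusted p = 5.65e-06). AK4, a mitochondrial adenylate kinase that stands on no list, went from 4.3, 3.5 and 3.9 to 339, 73.4, 365 and 508 (5.04 ± 0.65 SE, adjusted p = 1.44e-05). DDIT4, an inhibitor of mTOR signalling, was not called, and its groups overlapped at 2263, 2122 and 3069.6 against 4211, 1875, 3596 and 3357.

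**Figure D2:**
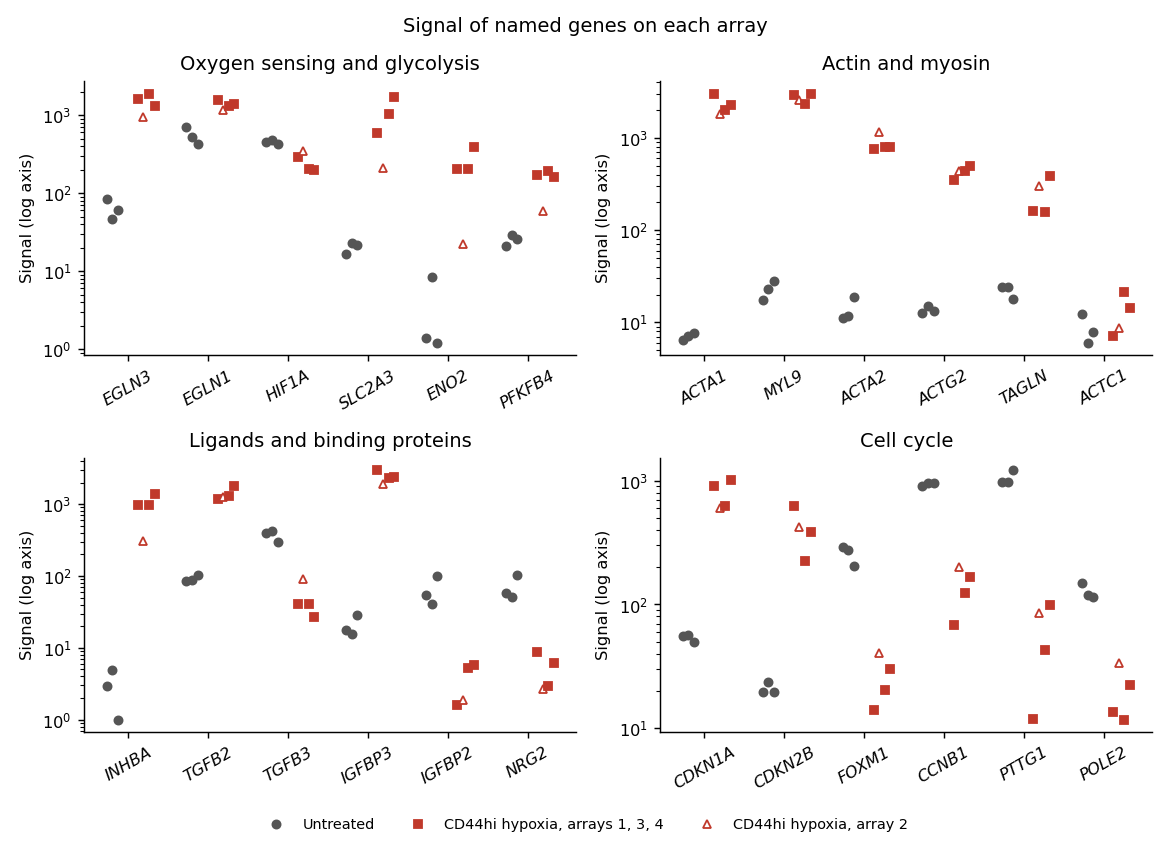
Signal of named genes (vertical, log axis) on each array, with grey circles for untreated arrays, red squares for CD44hi hypoxia arrays 1, 3 and 4 and open triangles for array 2. EGLN3, ACTA1 and CDKN1A show all CD44hi hypoxia arrays above all untreated arrays, HIF1A and PTTG1 show them below, and only ACTC1 overlaps.

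The size of the HIF pattern differed between arrays. Of the 37 glycolysis genes and other HIF targets called higher, CD44hi hypoxia array 2 was the lowest of its group in 35. Mean log2 differences from untreated over the 26 other HIF targets were 1.99, 1.27, 2.03 and 2.22 on CD44hi arrays 1 to 4 and 2.27, 1.06, 2.03 and 2.30 on CD44lo hypoxia arrays 1 to 4. In the CD44lo group the array numbered 2 was the lowest in 34 of the 37 genes as well. For glycolysis the CD44hi means were 1.00, 0.53, 1.19 and 1.10. Without CD44hi hypoxia array 2, 17 glycolysis genes and 21 other HIF targets were higher. On leaving out each array in turn, the counts were 13 to 17 and 18 to 21. Nothing in the labels says whether equal numbers mark a shared culture.

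**Figure D3:**
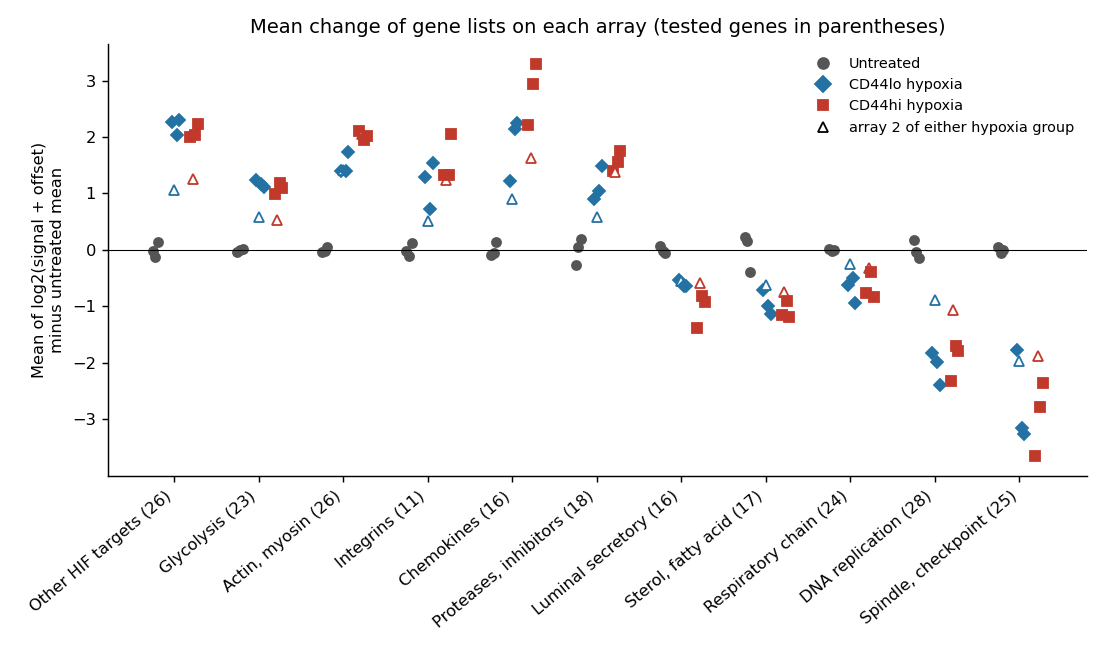
Mean log2 difference from the untreated mean over the members of each list, one point per array, with untreated arrays in grey, CD44lo hypoxia in blue, CD44hi hypoxia in red and array 2 of either as an open triangle. Array 2 lies lowest for HIF targets in both groups (1.27 in CD44hi, 1.06 in CD44lo), while the actomyosin means of CD44hi arrays lie between 1.95 and 2.10.

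Genes of the contractile cytoskeleton rose together. Of 26 tested, 22 were higher and 0 lower, with a median log2 difference of 1.37. ACTA1, skeletal alpha actin, went from 6.5, 7.2 and 7.7 to 3001, 1791, 1995 and 2243 (7.61 ± 0.46 SE, adjusted p = 1.52e-09). MYL9, the regulatory myosin light chain of smooth muscle and motile cells, went from 17.3, 22.8 and 27.9 to 2905, 2555, 2345 and 3023 (6.67 ± 0.41 SE, adjusted p = 1.57e-09). ACTA2, the smooth muscle actin of myofibroblasts, went from 11.1, 11.6 and 18.7 to 759.5, 1145, 789 and 794 (5.61 ± 0.39 SE, adjusted p = 6.77e-09). In each case the lowest CD44hi hypoxia array stood far above the highest untreated array. ACTG2, enteric smooth muscle actin, was 12.6, 15.1 and 13.3 and then 345, 441, 439 and 489.9 (4.59 ± 0.37 SE, adjusted p = 5.47e-08). TAGLN, an actin crosslinker, was 24.1, 24.4 and 17.8 and then 161, 297, 159 and 384 (3.18 ± 0.36 SE, adjusted p = 4.49e-06), but another TAGLN probe set gave a difference of 0.33, adjusted p = 0.625. CALD1, encoding caldesmon, rose by 3.24 ± 0.23, and FHL2, a cofactor at focal contacts, by 2.30 ± 0.27 (SE). The coactivator MRTFA rose by 2.14 ± 0.27, while its relative MRTFB was not called at -0.23 ± 0.19. SRF, named after its values were seen, rose by 1.30 ± 0.27 SE, adjusted p = 0.00121. MYL7, the atrial myosin light chain, stands on no list and went from 1.6, 2.1 and 1.3 to 238, 43.2, 175 and 395 (4.85 ± 0.77 SE, adjusted p = 0.000128). The actin genes are closely alike in sequence, so their probe sets may share signal and the split between them is uncertain.

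Not every cytoskeletal gene followed. CNN3, an actin-binding calponin, was not called, and ACTC1, cardiac actin, stayed near the bottom of the scale at 12.2, 6.0 and 7.8 and 7.1, 8.7, 21.1 and 14.2. ACTB, cytoplasmic actin, was higher on every CD44hi hypoxia array, at 8025, 6779, 7884 and 7064 against 5159, 5348 and 5836, but missed the threshold (0.45 ± 0.21 SE, adjusted p = 0.133). It passed when only the compared arrays were fitted (0.45, adjusted p = 0.00439). The skeletal muscle regulators MYOD1 and MYOG were below the filter, as were DES and CKM, encoding desmin and muscle creatine kinase. Highest CD44hi hypoxia signals of MYOD1 and MYOG were 8.7 and 3.3. Of 18 skeletal muscle markers, 6 were tested and 2 were higher, TNNC2 and TNNI2. Both were low, at 21.1, 11.3, 7.8 and 14 and 21.7, 19.3, 27.8 and 24.2 on CD44hi hypoxia arrays, and neither call held without untreated array 3 (1.18, adjusted p = 0.0728, and 0.63, adjusted p = 0.274). The TNNI2 call was also lost without untreated array 1 (adjusted p = 0.0669) and without CD44hi hypoxia array 1, 3 or 4 (adjusted p = 0.0594, 0.0779 and 0.0738). Summed signals of the whole skeletal list were 1274 to 1533 on untreated and 1439 to 2715 on CD44hi hypoxia arrays. Most of that sum was MB, myoglobin, at 1259, 1188 and 1426 and 2175, 1327, 2115 and 2585, which was not called (0.63 ± 0.26 SE, adjusted p = 0.0847), but was without CD44hi hypoxia array 2 (0.82, adjusted p = 0.0223). MYH11, the smooth muscle myosin heavy chain, fell from 296, 315 and 321 to 93.0, 148, 90.7 and 49.5 (-1.75 ± 0.34 SE, adjusted p = 0.000667). Of 5 smooth muscle markers tested, 2 others were higher, KCNMB1, a potassium channel subunit (1.54 ± 0.37 SE, adjusted p = 0.00416), and SYNM, an intermediate filament protein (1.26 ± 0.45 SE, adjusted p = 0.0445). KCNMB1 was 20.5, 17.8 and 39.9 and then 32.5, 103, 139 and 82.2, with overlap, and was not called with the mean of its probe sets (0.52, adjusted p = 0.273). The SYNM call was lost without any one array other than CD44hi hypoxia array 2, at adjusted p = 0.0788, 0.0809 and 0.162 without untreated array 1, 2 or 3 and 0.0993, 0.0805 and 0.110 without CD44hi hypoxia array 1, 3 or 4. The summed smooth muscle markers, of which MYH11 was the largest part in untreated cells, were 445 to 481 on untreated and 344 to 421 on CD44hi hypoxia arrays.

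**Figure D4:**
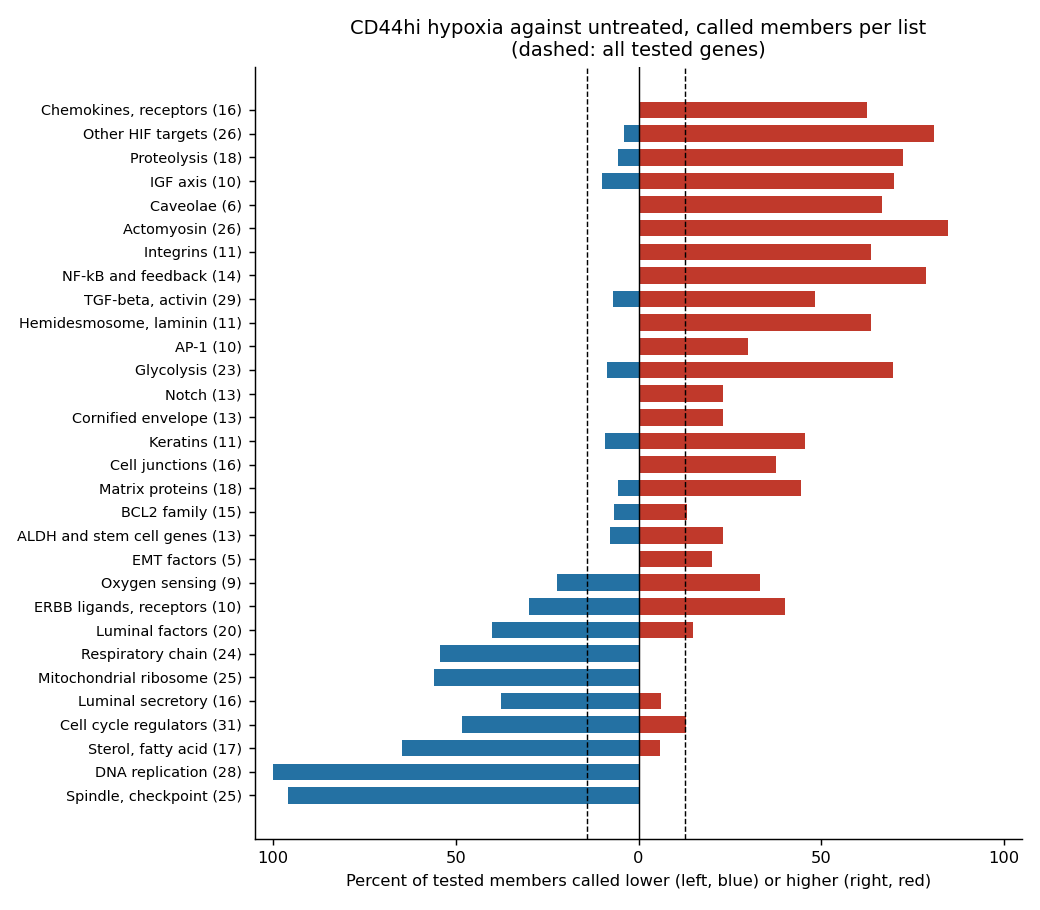
Percent of the tested members of each list that were called higher (right) or lower (left) in CD44hi hypoxia than in untreated cells. The number tested is in parentheses and dashed lines mark all tested genes (12.8% higher, 14.1% lower). The lists were chosen with earlier results of these data known. Actomyosin genes were called higher in 22 of 26, and spindle checkpoint genes lower in 24 of 25.

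Genes that link this cytoskeleton to membrane and matrix also rose. Of 6 caveolar genes tested 4 were higher, and 4 of 10 with no filter. CAV1, the main coat protein of caveolae, went from 32.9, 40.1 and 87.9 to 2704, 2328, 1763 and 2959 (5.49 ± 0.37 SE, adjusted p = 4.41e-09), and its partner CAV2 rose by 3.24 ± 0.38. The coat protein CAVIN1 rose by 1.89 ± 0.41 and the membrane-bending PACSIN2 by 1.12 ± 0.20, while EHD2, at the neck of caveolae, was not called (-0.14 ± 0.35). Of 11 laminin and hemidesmosome genes 7 were higher, led by the laminin chains LAMB3 (23.7, 15.6 and 53.9, then 655, 428, 549.6 and 610.2; 4.13 ± 0.36 SE, adjusted p = 1.14e-07) and LAMC1 (3.50 ± 0.60 SE, adjusted p = 0.000240). Both laminin genes were separated between groups. On leaving out each array, 5 to 7 genes of this list were higher. LAMB1, another laminin chain, was not called (-0.61 ± 0.32). Among integrins, receptors for these ligands, 7 of 11 tested rose and none fell. With no filter 7 of 16 rose. ITGB3, the beta subunit of the vitronectin receptor, went from 3.4, 3.1 and 3.7 to 180.4, 69.0, 156 and 373 (4.48 ± 0.67 SE, adjusted p = 7.48e-05). ITGB8, a partner of ITGAV that binds latent TGF-beta, went from 4.6, 0.2 and 2.1 to 84.0, 79.7, 54.9 and 186 (3.93 ± 0.40 SE, adjusted p = 1.34e-06). Both were close to the bottom of the scale in untreated cells and highest on CD44hi hypoxia array 4. ITGA2, a collagen receptor subunit, rose by 2.96 ± 0.41, ITGA1 by 2.47 ± 0.42, ITGA5, the fibronectin receptor subunit, by 1.50 ± 0.36, ITGAV by 1.28 ± 0.17 and ITGB1 by 0.88 ± 0.16 (SE). ITGB5 was not called (-0.10 ± 0.17 SE), although another ITGB5 probe set gave -0.98, adjusted p = 0.0351.

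The matrix list moved less evenly, with 8 of 18 tested higher and 1 lower. Without untreated array 1 or without CD44hi hypoxia array 1, 5 were higher. FN1, fibronectin, went from 147, 219.5 and 486 to 4578, 3479, 3085 and 4781 (3.94 ± 0.46 SE, adjusted p = 5.08e-06), and THBS1, thrombospondin, from 306, 261 and 182 to 1764, 1906, 2445 and 2017 (3.03 ± 0.46 SE, adjusted p = 8.54e-05). Neither overlapped, and untreated array 3 was the highest of its group for FN1. The chains of type V collagen went apart. COL5A1 rose from 48.0, 66.1 and 69.3 to 484, 351.3, 239 and 361 (2.45 ± 0.32 SE, adjusted p = 1.79e-05), while COL5A2 fell from 119, 93.3 and 118 to 11, 28.5, 8.8 and 3.3 (-2.93 ± 0.64 SE, adjusted p = 0.00205). Of 11 fibroblast markers 2 were tested and 1 was higher, or 0 to 1 on leaving out each array. The summed list was low, at 41.4 to 63.4 on untreated and 81.4 to 153 on CD44hi hypoxia arrays. Its part in the matrix result was not tested.

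Pericellular proteolysis genes were higher in 13 of 18 tested and lower in 1, and lower in 0 without untreated array 1, 2 or 3 or CD44hi hypoxia array 1. The higher count was 9 to 14 on leaving out each array, with 9 without untreated array 1. MMP2, a gelatinase, went from 1.1, 4.0 and 4.2 to 147, 40.3, 85.3 and 89.9 (3.60 ± 0.53 SE, adjusted p = 5.67e-05), and MMP12, the macrophage elastase, from 1.9, 0.4 and 3.7 to 213, 86.8, 237 and 203 (4.87 ± 0.72 SE, adjusted p = 6.85e-05). Both were near the bottom of the scale in untreated cells, and array 2 was the lowest CD44hi hypoxia array for each. SERPINA3, an inhibitor of neutrophil proteases, was 1.4, 3.5 and 9.1 and then 167, 74.7, 56.0 and 150.4 (3.67 ± 0.47 SE, adjusted p = 1.44e-05). F3, tissue factor, was 259, 277 and 168 and then 1178, 1515, 1461 and 1149.7 (2.50 ± 0.38 SE, adjusted p = 8.40e-05), and TFPI2, a protease inhibitor, rose too (2.58 ± 0.48). PLAUR, the urokinase receptor, rose by 2.03 ± 0.35 (SE).

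In the TGF-beta family, ligands moved in opposite directions. INHBA, which encodes the subunit of activin A, went from 2.9, 4.9 and 1.0 to 987, 312, 964 and 1394 (6.86 ± 1.00 SE, adjusted p = 5.40e-05), a difference that the offset understates. INHA, the alpha subunit of inhibin, went from 13.3, 5.9 and 4.4 to 93.6, 150.1, 93.5 and 179 (3.48 ± 0.42 SE, adjusted p = 7.71e-06). TGFB2 rose from 84.5, 87.1 and 105 to 1182, 1260.3, 1316 and 1764 (3.83 ± 0.31 SE, adjusted p = 5.23e-08), and TGFB3 fell from 401, 421 and 301 to 41.0, 91.6, 40.6 and 26.5 (-2.92 ± 0.43 SE, adjusted p = 6.55e-05). All 4 genes were separated between the groups. INHBB, the other activin subunit measured, was not called (-0.40 ± 0.23). TGFBR2, the ligand-binding receptor, rose by 1.46 ± 0.23, and SMAD3, its transcription factor, by 1.89 ± 0.45 (SE), with SMAD3 at 99.7, 80.1 and 214 on untreated arrays and 770.4, 381, 205 and 707 on CD44hi hypoxia arrays, of which array 3 lay inside the untreated range. PMEPA1, a target that dampens the pathway, rose from 1356, 1274 and 1193 to 4133, 3558, 3977 and 4094 (1.62 ± 0.21 SE, adjusted p = 1.23e-05). FSTL3, a secreted trap for activin, rose by 2.41 ± 0.58, with untreated array 2 above CD44hi hypoxia array 3. Over the list, 14 of 29 were higher and 2 lower, with a median of 0.77.

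Binding proteins for insulin-like growth factors also split. IGFBP3 went from 17.7, 15.7 and 29.1 to 2960.0, 1902, 2296 and 2391 (6.60 ± 0.42 SE, adjusted p = 1.62e-09) and IGFBP5 from 975, 1125 and 1404 to 3428, 3788, 3429 and 3583 (1.62 ± 0.22 SE, adjusted p = 3.19e-05). IGFBP2 fell from 54.2, 41.2 and 98.8 to 1.6, 1.9, 5.3 and 5.7 (-3.09 ± 0.64 SE, adjusted p = 0.00134). None of these overlapped, and IGFBP2 was at or near the bottom of the scale on all CD44hi hypoxia arrays. The adaptors of the insulin and IGF1 receptors rose, IRS2 by 3.28 ± 0.55 and IRS1 by 1.68 ± 0.31, and INSR, the insulin receptor, by 1.49 ± 0.32 (SE). INSR was 758.9 on CD44hi hypoxia array 4 and 316.5 to 353.5 on the others. IGFBP7 rose by 2.05 ± 0.54 SE, adjusted p = 0.00771, a call that was lost without untreated array 1 (1.77, adjusted p = 0.0501). In all, 7 of 10 IGF axis genes were higher and 1 lower, and 5 to 8 were higher on leaving out each array.

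The ERBB family showed 4 genes higher and 3 lower of 10. EGFR rose from 569.6, 569 and 747 to 1605, 1651, 1900.0 and 1155 (1.31 ± 0.22 SE, adjusted p = 0.000238). Its ligands TGFA and HBEGF rose from near the bottom of the scale, TGFA from 1.2, 0.7 and 1.2 to 42.6, 8.3, 16.8 and 62.8 (2.53 ± 0.51 SE, adjusted p = 0.00106) and HBEGF from 7.2, 5.6 and 6.4 to 51.7, 20.4, 27.3 and 103 (2.13 ± 0.48 SE, adjusted p = 0.00244). ERRFI1, an inhibitor of the activated receptor, rose by 1.91 ± 0.30. Untreated and CD44hi hypoxia arrays did not overlap for any of these 4 genes. EGF, another ligand, fell from 75.1, 96.1 and 106 to 39.0, 32.9, 25.7 and 34.4 (-1.38 ± 0.35 SE, adjusted p = 0.00588), and NRG2, a ligand of ERBB3 and ERBB4, from 57.6, 51.1 and 103 to 8.9, 2.7, 2.9 and 6.1 (-2.99 ± 0.45 SE, adjusted p = 7.06e-05). Another NRG2 probe set gave a difference of -0.61, adjusted p = 0.400. ERBB2, amplified in this line, was 3384, 3233 and 4013 and then 2708, 3381, 3409 and 2469 and was not called (-0.25 ± 0.17 SE, adjusted p = 0.285). Under quantile normalization it passed, at -0.51, adjusted p = 0.0139. ERBB3 was lower (-0.54 ± 0.19 SE, adjusted p = 0.0382), while another of its probe sets lay in the opposite direction at 0.47. The call was lost on leaving out any array but CD44hi hypoxia array 2, with adjusted p of 0.0598, 0.0639 and 0.177 without untreated array 1, 2 or 3, and 0.116, 0.0529 and 0.0797 without CD44hi hypoxia array 1, 3 or 4.

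**Figure D5:**
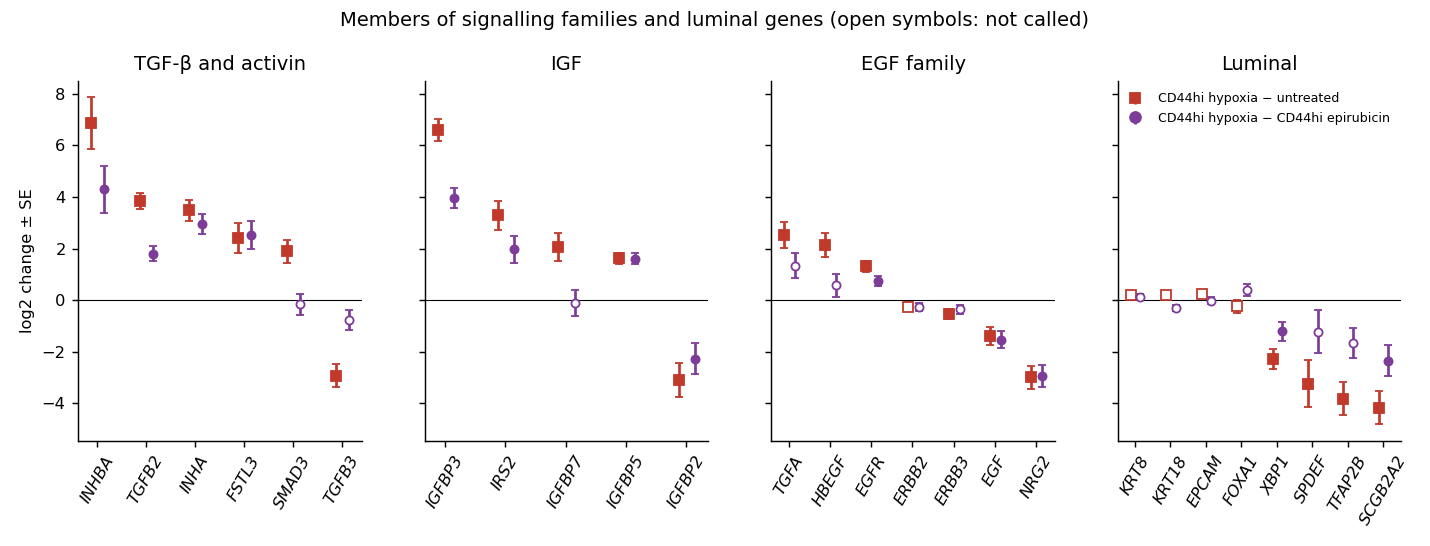
Log2 difference of CD44hi hypoxia from untreated cells (red squares) and from CD44hi cells after epirubicin (purple circles) for members of 4 families, with the standard error as bars and filled symbols for called genes. TGFB2 and TGFB3, as well as IGFBP3 and IGFBP2, lie on opposite sides of 0 against untreated cells, while KRT8 and KRT18 lie near it.

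Of 13 Notch pathway genes tested, 3 rose and 0 fell. JAG1, a ligand, went from 43.7, 61.0 and 43.2 to 1443, 1054, 841 and 1066 (4.36 ± 0.43 SE, adjusted p = 9.95e-07). HEY1, a repressor induced by Notch, went from 271, 226 and 362 to 2631, 1777, 2179 and 2931 (3.04 ± 0.25 SE, adjusted p = 5.23e-08), and the receptor NOTCH3 rose by 1.18 ± 0.17. All 3 were separated between the groups, whereas HES1 and NOTCH2 were not called (0.03 ± 0.27 and 0.07 ± 0.18). With only the compared arrays fitted, 5 Notch genes were higher.

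Chemokine and cytokine genes were higher in 10 of 16 tested and lower in 0, with a median of 2.82 over the tested members. With no filter the median over 26 members was 0.81. ACKR3 and CXCR4 are the receptors for CXCL12, which was below the filter. ACKR3 went from 7.0, 5.8 and 2.4 to 499, 219.5, 276 and 735 (5.43 ± 0.60 SE, adjusted p = 3.38e-06) and CXCR4 from 58.8, 19.8 and 20.4 to 918, 628, 836 and 1233 (4.72 ± 0.40 SE, adjusted p = 1.09e-07). CCL2, which attracts monocytes, went from 54.3, 50.5 and 57.3 to 802, 765, 910.2 and 988 (3.90 ± 0.55 SE, adjusted p = 4.39e-05). No array of one group reached the other for these genes. IL32 was 15.7, 5.3 and 6.5 and then 264, 119.5, 302 and 312 (4.23 ± 0.44 SE, adjusted p = 1.71e-06), and CXCL11, a ligand of ACKR3, was 2.2, 1.7 and 0.1 and then 66.3, 24.8, 166 and 119.8 (3.89 ± 0.57 SE, adjusted p = 5.71e-05). IL6 and CXCL1 were under 2 on every untreated array and reached 26.4, 8.5, 90.0 and 77.5 and 62.8, 15.7, 332 and 107. CD44hi hypoxia array 2 was the lowest of its group for ACKR3, CXCR4, IL32, CXCL11, IL6 and CXCL1.

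NF-kB genes and their feedback inhibitors were higher in 11 of 14, and in 8 to 10 on leaving out each array. With another rule for choosing among a gene's probe sets, 10 were higher and 1 lower. TRAF1, an adaptor of TNF receptors, went from 2.1, 8.4 and 8.4 to 82.2, 79.1, 116 and 137 (3.39 ± 0.48 SE, adjusted p = 4.15e-05), and TNFAIP3, which encodes the inhibitor A20, from 15.4, 33.0 and 27.5 to 139, 94.2, 246 and 289 (2.65 ± 0.39 SE, adjusted p = 5.48e-05). RELB rose by 1.44 ± 0.21, NFKB2 by 0.97 ± 0.23, TNF by 1.64 ± 0.35 and NFKBIZ by 1.67 ± 0.31 (SE). Of AP-1 genes 3 of 10 were higher, ATF3 (2.35 ± 0.37 SE, adjusted p = 0.000117), FOSL2 (1.55 ± 0.27 SE, adjusted p = 0.000327) and JUN (1.53 ± 0.29 SE, adjusted p = 0.000668). The untreated JUN signals were 177, 571 and 265, with array 2 the highest. Without untreated array 2, 6 AP-1 genes were called. Markers of immune cells were near the bottom of the scale. Of 14 markers 2 were tested and 1 was higher. PTPRC, the pan-leukocyte marker, did not exceed 9.1 in CD44hi hypoxia. The summed list was 27.7 to 40.5 on untreated and 61.4 to 79.7 on CD44hi hypoxia arrays.

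Keratins of simple epithelium, KRT8 and KRT18, were not called, and of 11 keratins tested 5 rose and 1 fell, a fall that was not called without untreated array 3 or CD44hi hypoxia array 1. KRT5, a basal keratin, went from 5.4, 10.9 and 0.8 to 93.5, 91.4, 106 and 204 (3.75 ± 0.52 SE, adjusted p = 3.59e-05) and KRT16, of activated epidermis, from 1.2, 1.0 and 0.6 to 51.2, 73.4, 45.7 and 206 (4.00 ± 0.69 SE, adjusted p = 0.000244). KRT80 rose by 2.03 ± 0.24 and KRT15 by 1.77 ± 0.32. These 4 were separated between the groups, and both KRT5 and KRT16 were highest on CD44hi hypoxia array 4. KRT14, the usual partner of KRT5, was below the filter and no higher than 10.6 on any CD44hi hypoxia array. Keratin genes, and SPRR genes, resemble each other, so signal may be shared between their probe sets. Genes of the cornified envelope rose in 3 of 13, chiefly SPRR3 (0.4, 0.5 and 1.2, then 361, 159.8, 98.3 and 385; 5.50 ± 0.79 SE, adjusted p = 4.93e-05) and IVL, involucrin (89.3, 77.6 and 96.8, then 1004, 817, 411 and 1541; 3.22 ± 0.46 SE, adjusted p = 4.78e-05). S100A8 and S100A9 were not called (-0.06 ± 0.31 and -0.54 ± 0.35).

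Luminal transcription factors were lower in 8 of 20 tested and higher in 3. TFAP2B, a luminal AP-2 factor, fell from 139, 87.2 and 106 to 2.6, 14.3, 1.3 and 1.8 (-3.81 ± 0.62 SE, adjusted p = 0.000162). SPDEF, a factor of secretory differentiation, fell from 371, 427 and 367 to 31.7, 197, 50.9 and 3.3 (-3.24 ± 0.90 SE, adjusted p = 0.0115), and XBP1, a factor of the secretory pathway, from 608, 1084 and 831 to 256, 206, 127 and 109 (-2.28 ± 0.39 SE, adjusted p = 0.000223). SPDEF was highest on CD44hi hypoxia array 2, at 197.0, yet still below the untreated arrays. EHF, TOX3 and TRPS1 also fell, with log2 differences of -1.62 ± 0.42, -1.91 ± 0.47 and -1.21 ± 0.27, and GRHL2, an epithelial factor, rose by 1.20 ± 0.28. FOXA1 and TFAP2C were not called (-0.23 ± 0.26 and 0.03 ± 0.15). Secretory products went down with them in 6 of 16, with 1 higher (0 without untreated array 1 and 2 without CD44hi hypoxia array 2). SCGB2A2, mammaglobin, fell from 599, 329 and 393 to 10.9, 76.8, 15.4 and 9.7 (-4.16 ± 0.64 SE, adjusted p = 9.58e-05) and AZGP1, a zinc-binding glycoprotein, from 337, 265 and 447 to 13.3, 74.3, 50.3 and 40.4 (-3.02 ± 0.35 SE, adjusted p = 4.72e-06). PSCA, a surface antigen, also fell (-1.98 ± 0.38). ELAPOR1, an estrogen-induced membrane protein on no list, fell from 504, 504 and 512 to 9.0, 232, 13.7 and 45.4 (-3.65 ± 0.81 SE, adjusted p = 0.00229), with array 2 the highest CD44hi hypoxia array.

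Of 16 junction genes 6 rose and 0 fell, and 1 fell without CD44hi hypoxia array 2. CLDN1, a tight junction claudin, went from 24.4, 19.8 and 15.4 to 277, 277, 241 and 413 (3.66 ± 0.57 SE, adjusted p = 0.000115), and CDH2, N-cadherin, from 3.6, 2.7 and 1.1 to 67.5, 16.7, 23.6 and 96.5 (2.78 ± 0.59 SE, adjusted p = 0.00165). DSP, desmoplakin, rose by 1.35 ± 0.18 and PKP2, of the same desmosomes, by 2.09 ± 0.34. Of the genes that mark mesenchymal transition, most were below the filter. VIM, vimentin, was 0.7, 0.9 and 0.6 and then 0.9, 0.9, 8.7 and 20.1, and ZEB1 was 7.6, 7.0 and 4.9 and then 8.1, 5.9, 4.8 and 18.2. Among the 5 tested, SOX9, a progenitor cell factor, was the 1 gene that rose, from 172, 158 and 190.3 to 1472, 991, 1059 and 2053 (2.92 ± 0.36 SE, adjusted p = 1.04e-05), and SNAI1 was not called (0.38 ± 0.48).

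Cell division genes were lower as a block. Spindle checkpoint genes fell in 24 of 25, with a median of -2.77, and DNA replication genes in 28 of 28, with a median of -1.65. PTTG1, the securin that delays the parting of sister chromatids, fell from 982, 981 and 1216 to 11.9, 85.3, 43.0 and 98.9 (-4.36 ± 0.63 SE, adjusted p = 4.80e-05). KIF4A, a chromosome motor, fell from 477, 413 and 391 to 10.4, 74.1, 46.4 and 61.5 (-3.28 ± 0.47 SE, adjusted p = 4.19e-05), and POLE2, a subunit of DNA polymerase epsilon, from 148, 120.4 and 116 to 13.5, 33.4, 11.7 and 22.2 (-2.52 ± 0.38 SE, adjusted p = 8.39e-05). All CD44hi hypoxia arrays were below all untreated arrays, and array 1 was the lowest for PTTG1 and KIF4A. The spindle proteins TPX2 and CENPE also fell (-3.15 ± 0.47 and -3.09 ± 0.39), as did ORC1, of the origin recognition complex (-2.27 ± 0.44), and UHRF1, which maintains DNA methylation (-2.22 ± 0.35). DLGAP5, a spindle protein on no list, went from 262, 282 and 266 to 0.2, 39.8, 15 and 20.1 (-3.98 ± 0.59 SE, adjusted p = 6.94e-05). The histone genes H3C8 and H2BC14, expressed with DNA replication, also fell (-4.02 ± 0.63 and -3.64 ± 0.60), although near-identical histone genes may share these probes.

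Among 31 cell cycle regulators 4 rose and 15 fell. The inhibitors CDKN1A, which encodes p21, and CDKN2B, which encodes p15, rose. CDKN1A went from 56.0, 56.9 and 49.8 to 904, 597, 621 and 1008 (3.72 ± 0.43 SE, adjusted p = 5.13e-06) and CDKN2B from 19.7, 23.8 and 19.6 to 630.1, 422, 223 and 387 (3.97 ± 0.44 SE, adjusted p = 3.39e-06). FOXM1, the factor that drives mitotic genes, fell from 291, 276 and 206 to 14, 40.8, 20.5 and 29.9 (-3.17 ± 0.42 SE, adjusted p = 2.33e-05), and CCNB1, cyclin B1, from 910.4, 963 and 952 to 68.1, 201, 124 and 167 (-2.81 ± 0.36 SE, adjusted p = 1.25e-05). No array overlapped between the groups for these 4 genes. MYBL2 and CCNA2 also fell (-2.86 ± 0.40 and -2.51 ± 0.41), while CCND1 and CDK4 were not called (0.49 ± 0.26 and -0.18 ± 0.16). The depth of the fall varied with the array. List means of the spindle genes were -3.65, -1.88, -2.77 and -2.36 and of the replication genes -2.32, -1.06, -1.70 and -1.79 on CD44hi hypoxia arrays 1 to 4. Of the 52 genes called lower, array 2 was the highest of its group in 45 and array 1 the lowest in 43. Without array 2, the counts stayed at 24 and 28. On leaving out each array in turn, 24 to 25 spindle genes and 23 to 28 replication genes were called lower. The count of 23 was reached without untreated array 1.

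Mitochondrial genes were lower by smaller amounts. Of 24 respiratory chain genes 13 fell and 0 rose, with a median of -0.54. UQCRC2, a core protein of complex III, fell from 1991, 1967 and 2039 to 532, 975, 905 and 534 (-1.49 ± 0.27 SE, adjusted p = 0.000415), and NDUFV1, of complex I, from 1842, 1621 and 1765 to 538, 1137, 836 and 406 (-1.36 ± 0.28 SE, adjusted p = 0.00111). COX6C, of complex IV, was not called (0.24 ± 0.24). Of 25 mitochondrial ribosome genes and TFAM, 14 fell and 0 rose, among them MRPL19 (-1.09 ± 0.23 SE, adjusted p = 0.00152) and MRPL37 (-0.85 ± 0.20 SE, adjusted p = 0.00358). Both counts were smaller without some arrays. Respiratory chain genes called lower numbered 8 without untreated array 1 and 8 without CD44hi hypoxia array 4, and mitochondrial ribosome genes 9 without CD44hi hypoxia array 4.

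Lipid synthesis genes fell in 11 of 17 tested and rose in 1. INSIG1, a sterol sensor and target of the SREBP factors, fell from 459.5, 462 and 136 to 57.2, 59.1, 35.2 and 65.2 (-2.45 ± 0.50 SE, adjusted p = 0.00108), with untreated array 3 well below the other untreated arrays. SREBF1, encoding the SREBP that drives fatty acid synthesis, fell from 297, 297 and 182 to 40.2, 69.9, 50.1 and 37.7 (-2.29 ± 0.32 SE, adjusted p = 3.62e-05), and FASN, fatty acid synthase, from 1156, 1159 and 756 to 195, 419.7, 356 and 133 (-1.99 ± 0.37 SE, adjusted p = 0.000548). THRSP, a lipogenic protein on no list, fell from 84.3, 129 and 84.2 to 3.8, 10.4, 0.3 and 0.4 (-3.85 ± 0.49 SE, adjusted p = 1.44e-05). These genes did not overlap between the groups. SC5D, an oxidase late in cholesterol synthesis, was the exception, rising from 86.5, 90.6 and 61.5 to 256, 167, 192 and 219 (1.35 ± 0.19 SE, adjusted p = 3.19e-05).

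Other lists held few calls. Among aldehyde dehydrogenases and stem cell genes 3 of 13 were higher and 1 lower, where ALDH2 fell from 1893, 2049.8 and 2173 to 509.5, 1238, 699.9 and 701 (-1.44 ± 0.36 SE, adjusted p = 0.00493), KLF4 rose by 0.97 ± 0.25, and ALDH1A3 was not called (0.21 ± 0.17). With the mean of all probe sets of a gene, 1 was higher, as was the case without untreated array 1 or 2, and 2 were lower without CD44hi hypoxia array 2 or 3. In the BCL2 family 2 of 15 were higher and 1 lower. The higher count was 0 without untreated array 1 or 2, 1 without CD44hi hypoxia array 4 and 4 without array 2. In this family BID, a trigger of apoptosis, fell (-1.22 ± 0.27) and BCL2L1, its antagonist, was not called (0.21 ± 0.17). Of hyaluronan genes, CEMIP2, a cell-surface hyaluronidase, rose from 181, 157 and 105 to 399, 406, 559 and 693 (1.77 ± 0.31 SE, adjusted p = 0.000265). HMMR, a hyaluronan receptor also known as a spindle protein, fell from 205, 268 and 236 to 4.7, 49.8, 23.9 and 50.4 (-3.03 ± 0.58 SE, adjusted p = 0.000643). CD24, often read together with CD44, was not called (0.02 ± 0.20). Of endothelial markers 1 of 5 tested rose, CDH5 (1.41 ± 0.25 SE, adjusted p = 0.000310), and 2 did without CD44hi hypoxia array 2, while PECAM1 did not exceed 14.2 on any of the 7 arrays, and the summed list was 184 to 239.5 and 245 to 395. TCIM, a regulator of growth signalling, had the fifth largest rise on the same scale, from 5.6, 6.7 and 11.5 to 1017, 674, 459 and 699 (5.86 ± 0.47 SE, adjusted p = 5.23e-08).

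The same CD44hi hypoxia arrays were set against the CD44lo fraction of hypoxic cells, which holds the treatment constant. With limma, 0 of 12925 genes were called (0.00%), and the lowest adjusted p was 0.301. At an unadjusted p under 0.05 there were 889 genes (6.88%), 423 of them higher in CD44hi (3.27%) and 466 lower (3.61%). CD44, the sort marker, was 87.5, 20.5, 256 and 456 in CD44lo and 1050.3, 487, 972 and 1658 in CD44hi cells. Every CD44hi array was above every CD44lo array, yet CD44 was not called either. The absence of calls therefore does not show that the fractions were alike. Differences of oxygen genes were small beside their error. EGLN3 differed by 0.07 ± 0.30 SE, unadjusted p = 0.810 and LOXL2 by 0.09 ± 0.24 SE, unadjusted p = 0.710, and 1 of 26 other HIF targets had an unadjusted p under 0.05, CA12. CA12 was 529.5, 189.6, 178 and 144 in CD44lo cells, above every CD44hi array (-1.47 ± 0.32 SE, unadjusted p = 0.000160).

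Actomyosin genes leaned to the CD44hi side, with 24 of 26 positive, 14 at an unadjusted p under 0.05 and 9 higher on all CD44hi arrays than on any CD44lo array, as were 166 of all 12925 genes (1.28%). ACTA1 was 649.8, 289, 879 and 1270.0 in CD44lo hypoxia, a difference of 1.70 ± 0.43 SE, unadjusted p = 0.000696, and ACTA2 was 356, 205, 312 and 399 (1.46 ± 0.36 SE, unadjusted p = 0.000579). Both were far above the untreated signals on every CD44lo array. List means were 1.39, 1.41, 1.41 and 1.73 on CD44lo arrays against 2.10, 2.05, 1.95 and 2.02 on CD44hi arrays. Among ligands and receptors, ITGB3 differed by 2.56 ± 0.62 SE, unadjusted p = 0.000518, IL32 by 2.11 ± 0.41 SE, unadjusted p = 4.66e-05, CCL5 by 2.54 ± 0.61 SE, unadjusted p = 0.000447 and TRAF1 by 1.80 ± 0.44 SE, unadjusted p = 0.000600. THBS1 was 249.5, 783, 1018 and 1009.7 in CD44lo cells (1.58 ± 0.43 SE, unadjusted p = 0.00131). None of these passed adjustment over all genes. Spindle genes had 0 and replication genes 0 at an unadjusted p under 0.05, with PTTG1 at -0.51 ± 0.58 SE, unadjusted p = 0.389. Without CD44lo hypoxia array 4, 6 genes were called, CD44, CLIC4, GLIPR1, IL32, SGK1 and TRAF1; CLIC4, GLIPR1 and SGK1 were named after their values were seen.

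Against CD44hi cells after epirubicin, which hold the sort constant and differ in treatment and in its length, 2354 genes were called (18.2%), 1034 higher in hypoxia (8.0%) and 1320 lower (10.2%). This comparison uses the same CD44hi hypoxia arrays as the ones above. The ratio of 3' to 5' ACTB signal was 1.24 to 1.85 on the epirubicin arrays, above every CD44hi hypoxia array on arrays 1, 3 and 4. Mean hybridisation control signals were 3905, 2219, 5942 and 6043 on these epirubicin arrays, against 2338 to 3085 in CD44hi hypoxia. The part of either measure in the differences was not tested. Other HIF targets were higher in 18 of 26 and glycolysis genes in 16 of 23, with EGLN3 at 72.2, 137, 97.4 and 66.0 after epirubicin (3.91 ± 0.30 SE, adjusted p = 1.13e-07). AK4 was 13.4, 8.6, 3.2 and 18.9 after epirubicin (4.25 ± 0.60 SE, adjusted p = 5.62e-05). Both genes were lower on every epirubicin array than on any CD44hi hypoxia array. Actomyosin genes were higher in hypoxia in 14 of 26 and lower in 0. ACTA1 was 49.8, 232, 50.1 and 158 after epirubicin, a difference of 4.43 ± 0.43 SE, adjusted p = 1.78e-06, and INHBA was 5.4, 134, 17.7 and 94.5 (4.29 ± 0.92 SE, adjusted p = 0.00247). SEMA5B, a guidance protein, was 1.6, 0.7, 1.0 and 6.6 after epirubicin and 252, 109.8, 59.0 and 191 in hypoxia (4.45 ± 0.53 SE, adjusted p = 9.23e-06). SIGLEC6, a sialic acid receptor, was 40.1, 76.6, 36.4 and 159.8 and 818, 1836, 1391 and 1526 (4.26 ± 0.46 SE, adjusted p = 3.85e-06), with untreated arrays at 323, 190.2 and 127. NF-kB genes were higher in 1 of 14 and lower in 1, and of the interleukins and chemokines CCL2 and IL32 were not called, at 1.46 ± 0.51 SE, adjusted p = 0.0533 and 1.09 ± 0.41 SE, adjusted p = 0.0700.

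Lower in hypoxia than after epirubicin were 24 of 25 spindle genes and 21 of 28 replication genes. PTTG1 was 1108, 634, 1119.9 and 358 after epirubicin (-3.83 ± 0.58 SE, adjusted p = 0.000116), above every CD44hi hypoxia array. GDF15, a stress-induced ligand, was 521, 223, 330.1 and 646 after epirubicin and 10.7, 27.8, 22.4 and 30.8 in hypoxia (-3.96 ± 0.59 SE, adjusted p = 9.58e-05). PIGR, the receptor that carries antibodies across epithelium, was 4083, 1829, 3411 and 3548 and 52.2, 438, 132 and 182 (-4.28 ± 0.52 SE, adjusted p = 1.22e-05), and S100A7, an epidermal protein, was 984, 2495, 1686 and 2576 and 19.1, 44.2, 389 and 265 (-4.12 ± 0.67 SE, adjusted p = 0.000245). None of these 3 genes overlapped between the groups compared, which was a condition of naming them. Luminal secretory genes were lower in 9 of 16 and higher in 0.

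Most genes of these lists are measured by more than 1 probe set. For the called genes, 413 of 426 further probe sets above the filter moved in the direction of the one used. Genes with a probe set in the opposite direction numbered 13, among them XBP1 and ERBB3 described above.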

How the data were processed

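RNA of SKBR3 cells was measured on 19 Affymetrix arrays, grouped by their labels. The deposited intensity values are linear MAS5 signals per probe set, per the submitters' processing notes. MAS5 settings are not given in the sources used here. The trimmed mean was 100.01 on every array (2% left out at each end), so the authors' values are scaled array by array. Gene names came from the platform annotation: 41091 of 54675 probe sets name 1 gene, 1801 several and 11721 none, and 62 are controls.

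Each of 19775 genes was represented by its probe set of highest mean signal, and by one marked for cross-hybridisation (type x) only where no other existed. Signals plus an offset of 4.2, the 25th percentile, were taken to log2. Differences on that log2(signal + 4.2) scale understate changes of dim genes. Genes at or above the median signal of 16.9 on at least 3 arrays were tested (12925). Group means of 5 groups over all 19 arrays were fitted with limma 3.58.1 in R 4.3.3 (empirical Bayes with a variance trend, two-sided, Benjamini-Hochberg over all tested genes), and a gene was called at an adjusted p under 0.05. Plots and counts used Python 3.11.15, pandas 2.3.3, numpy 2.4.6 and matplotlib 3.10.9. The fit was tested on simulated data. The number of arrays limits precision.

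Members and 37 gene lists were chosen with earlier results of these data known, and lists are described by counts and medians. Named genes are CD44, CD24 and ERBB2, and the 15 largest rises and 15 largest falls that were called without overlap. They include all members of lists of at most 14 genes, and up to 8 called and 4 uncalled members of longer lists. The 8 largest rises and falls of the other comparisons, likewise called without overlap, were added. Others are named as chosen after their values were seen. Promoters came from RefSeq (GRCh38.p14). Alternatives were other offsets (1 and 16), filters, quantile normalization, the mean of a gene's probe sets, only the compared arrays, no variance trend, the replicate number as a block, deferring probe sets of type s (chosen after seeing the data) and leaving out each array.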

Additional observations from a re-analysis of the deposited data

Results flagged for a closer look

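For 4 arrays of a group, an array was singled out where its gap to the next array as a share of the group's range on the log2 scale, exceeded Dixon's 95% critical value. Chance does so in about 1 of 20 groups, and 9 of 274 groups of values checked did. ACTA2 reached 1144.5 on CD44hi hypoxia array 2 against 759.5 to 794.0 on the others, MMP12 was 86.8 there against 203.1 to 236.7, and PFKFB4 was 58.9 there against 162.0 to 189.8. INSR was 758.9 on CD44hi hypoxia array 4 against 316.5 to 353.5 on the others. S100A9 was 420.8 on CD44hi hypoxia array 1 against 1375.2 to 1646.2. Among list means, in log2 difference from untreated, integrins on CD44hi hypoxia array 4 stood at 2.05 against 1.24 to 1.33, and luminal markers on array 2 at -0.17 against -0.34 to -0.33. On CD44lo hypoxia array 4 the actomyosin mean was 1.73 against 1.39 to 1.41, and the Notch mean was 1.04 against 0.69 to 0.74.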

How the results depend on the processing

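The comparison of CD44hi hypoxia with untreated cells called 2763 to 3893 genes under the other settings, and 2322 (without untreated array 1) to 3777 (without CD44hi hypoxia array 2) on leaving out each array. Against CD44hi epirubicin the counts were 1920 to 3171, and 1684 to 2416 on leaving out each array. Against CD44lo hypoxia 0 genes were called except with an offset of 16 (1 gene, GLIPR1), with the replicate block (4 genes) and on leaving out arrays (0 to 6), while 453 to 1529 genes had an unadjusted p under 0.05. Of 162 named genes called against untreated, 153 kept their call and direction in all 9 other settings and 7 leave-outs, and of 38 not called, 6 were called in at least 1 setting and 3 without an array. No named gene changed direction past the threshold. ERBB3 was lost without a filter (adjusted p = 0.0519), with the mean of its probe sets (adjusted p = 0.297) and without a variance trend (adjusted p = 0.0561). SYNM was lost without a filter (adjusted p = 0.0610), without a variance trend (adjusted p = 0.0583) and under quantile normalization (adjusted p = 0.0527), and TNNI2 with an offset of 1 (adjusted p = 0.0549), under quantile normalization (adjusted p = 0.0518), with only the compared arrays (adjusted p = 0.0559) and in the fit that has the replicate block (adjusted p = 0.0545). The cause was not tested.

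The labels do not say that equal replicate numbers mark paired samples. Deviations of arrays 1 to 3 from their group means correlated at -0.04, 0.01 and -0.01 between untreated and CD44hi hypoxia, where 0 of 6 arrays correlated best with their own number. Between the CD44lo and CD44hi hypoxia fractions numbers 2 to 4 went together (0.63, 0.28 and 0.54) and number 1 did not (-0.04), and 6 of 8 arrays correlated best with their own number. Between the CD44hi fractions of epirubicin and hypoxia the values were 0.05, 0.14, 0.04 and 0.14, with 5 of 8 arrays best with their own number. Between the epirubicin fractions they were 0.37, 0.55, 0.11 and 0.46. A block for the replicate number gave 3679 called genes against untreated, 4 against CD44lo hypoxia (CA12, CLIC4, GLIPR1 and IL32) and 3171 against CD44hi epirubicin. The number of arrays, and signals near the offset, limit what can be said of dim genes.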
